A study of Danio rerio with 6 samples.

Results

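Zebrafish embryos exposed to SB505124, an inhibitor of Nodal receptors, from sphere stage were compared at tailbud stage with embryos exposed only from 30% epiboly. The labels name the inhibitor for both groups, give no strain, genotype or dose, and set the groups apart by onset alone. It is a synthetic compound that blocks the kinases of ALK4, ALK5 and ALK7, the receptors through which Nodal and related ligands act. The comparison uses 2 of the 6 samples of the series, each of 30 to 60 whole embryos, and all 13321 transcript records of the authors' table were members. By its title the study sought transcripts that take part in neural tube closure. The other 4 samples are the same onsets harvested at shield and at 7-somite stage, and untreated embryos were not analysed here.

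Nodal ligands are secreted proteins that signal through those receptors and the factors Smad2 and Foxh1, and in the fish blastula they induce endoderm and most mesoderm at the margin of the embryo. Sphere stage falls in the late blastula, and at 30% epiboly the blastoderm has begun to spread over the yolk while Nodal genes are active, so the later onset leaves time for signalling before the block. Tailbud stage closes gastrulation, when the notochord, presomitic mesoderm, prechordal plate and neural plate lie in their places and the first somites are about to form. Below, embryos are called sphere-treated or epiboly-treated by their onset. Each level is the authors' upper-quartile normalized mean with its deposited standard error, and each log2 ratio is the sphere-treated mean plus 5 over the epiboly-treated mean plus 5, with a limma-moderated standard error. A negative ratio means a lower level after the earlier onset.

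Most of the transcriptome was near equal between the onset groups, and a small set was strongly lower in sphere-treated embryos. The median ratio over all records was -0.01, and 91.4% of records lay within 0.5 of 0. Of the 13321 records 6832 had ratios below 0 and 6284 above 0, the background for such counts in the lists below. The test called 228 records lower (1.71% of all) and 34 higher (0.255%) at an adjusted p under 0.05, and "rose" and "fell" below refer to these calls. With the variance moderated along a trend with the mean level the counts were 300 lower (2.25%) and 93 higher (0.698%), and without moderation 39 and 3. By size alone, 227 records were at least 2-fold lower (1.7%) and 30 at least 2-fold higher (0.225%) with the higher mean at 50 or more. Of these, 74 were at least 4-fold lower and 0 at least 4-fold higher. The lowest ratio was -5.74 and the highest among called records 1.66, so the asymmetry lay in size as well as in number.

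**Figure D1:**
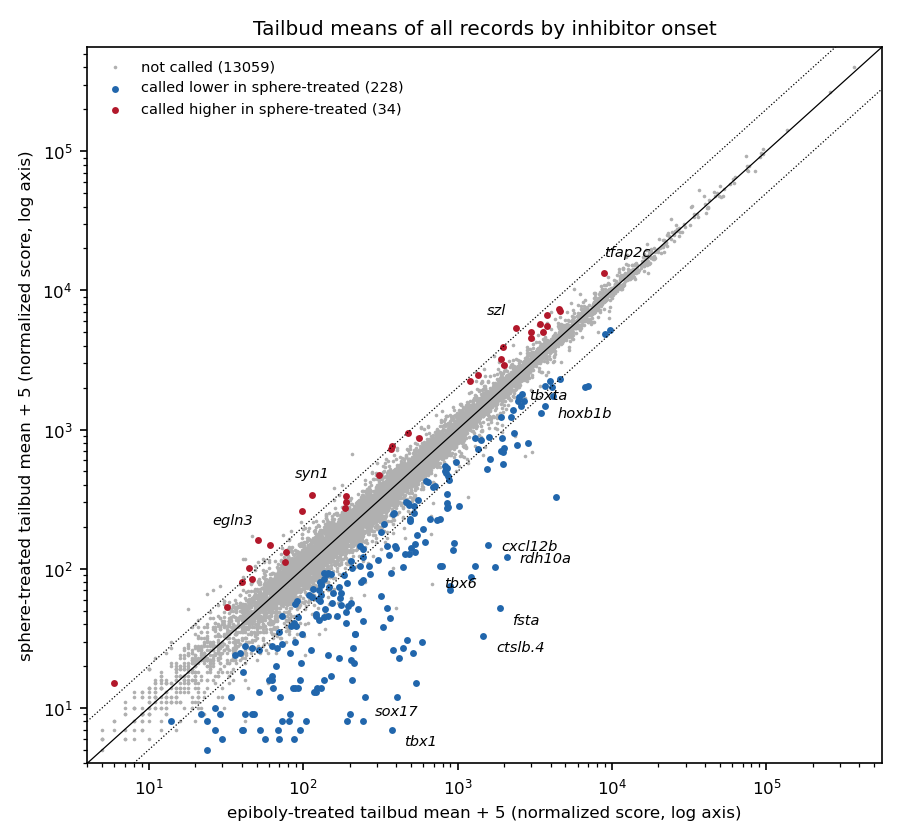
Tailbud means of all 13321 records in epiboly-treated (x) and sphere-treated (y) embryos, plus 5, on log axes; the solid line marks equality and the dotted lines 2-fold. The 228 records called lower reach far below the lower dotted line, whereas most of the 34 called higher lie between the lines.

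The deposited standard errors limit where the single values of a group can lie. All 11992 deposited errors between 0 and 5 fall on the set that 3 whole-number values can give, against 1.44% of all possible 3-decimal values, and 3 values per mean were therefore assumed. No value of such a trio can lie more than 2 standard errors from its mean. On that ground the values of both groups cannot overlap in 228 of the 228 records called lower and in 34 of the 34 called higher, which follows from the errors that made the calls and adds no support to them. The same held for 8.07% and 5.76% of all records, in the lower and higher direction. The labels list 1 sample per group and do not say what the 3 values are, so the p-values cover no more than the spread among these values, and that spread may be technical. With 1 sample per group, onset and any other difference between the embryo pools cannot be told apart.

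Precision was uneven in a way that touches several results below. Where the mean was 100 or more, the median relative error was 4.64% in epiboly-treated and 5.15% in sphere-treated tailbud embryos. Among records with a mean of at least 50, 315 of 12287 had a relative error over 25% in sphere-treated embryos, against 131 of 12413 in epiboly-treated embryos. In epiboly-treated embryos the level of 81.6% of those 315 records was higher at 7-somite than at shield stage, compared with 42.7% of all records. They included msgn1, tbx6, gsc and pax2a, whose sphere-treated means stood at 680 ± 362, 98 ± 50.5, 87 ± 38.6 and 613 ± 280.2. Whether the values within the sphere-treated group differ in developmental age was not tested. RNA came from whole embryos, so fewer cells of a type and less RNA per cell cannot be told apart.

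Genes of the heart, pharyngeal and lateral plate list held the lowest ratio of the table. tbx1, a T-box factor of the pharyngeal region, fell from 370 ± 44 to 2 ± 0.577 (log2 ratio -5.74, limma-moderated adjusted p = 1.1e-04), which leaves it near the bottom of the scale in sphere-treated embryos. twist1a, a basic helix-loop-helix factor of mesenchyme, fell from 534 ± 58.5 to 10 ± 2.33 (log2 ratio -5.17). fsta, which encodes follistatin, a secreted inhibitor of activin and BMP ligands, fell from 1871 ± 163 to 47 ± 11.4 (log2 ratio -5.17). prrx1a, a homeobox gene of mesenchyme, fell from 76 ± 10.5 to 3 ± 0.882 (log2 ratio -3.34). These were the 4 called members among 13 measured, none was called higher, and the list median was -1.17. The zinc-finger factor genes gata5 and gata6, which act in heart and endoderm, did not pass the test, gata5 at 1366 ± 181 and 913 ± 63.4 (log2 ratio -0.58, limma-moderated adjusted p = 0.22) and gata6 at 1038 ± 148 and 1133 ± 69.8 (log2 ratio 0.13). By their standard errors the values of both groups may overlap for either gene, so a fall was neither shown nor excluded for them. Of the 13 members 8 had ratios below 0 and 5 above.

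Intermediate mesoderm, the source of the kidney, showed the same direction. osr1, a zinc-finger gene of this tissue and of lateral mesoderm, fell from 582 ± 49.2 to 25 ± 2.33 (log2 ratio -4.29, limma-moderated adjusted p = 1.3e-04). pax8, a paired-box gene of kidney and otic precursors, fell from 363 ± 15 to 39 ± 9.94 (log2 ratio -3.06). lhx1a, a LIM homeobox gene of kidney precursors and of the organizer, fell from 77 ± 4.81 to 4 ± 0.577 (log2 ratio -3.19), and the homeobox gene hnf1ba fell from 1993 ± 106 to 738 ± 104 (log2 ratio -1.43). In all, 5 of 10 measured members fell and 0 rose, with a median of -0.96. pax2a, also used in kidney, ear and midbrain, was at 1154 ± 118 and 613 ± 280.2 (limma-moderated adjusted p = 0.49), and its sphere-treated standard error is so wide that the values may overlap. Blood and endothelial genes gave 2 lower and 1 higher of 16. drl, a zinc-finger gene of lateral plate mesoderm, fell from 77 ± 6.17 to 20 ± 2.85, and its relatives drll.1, drll.2 and drll.3, named here after their values were seen and possibly sharing reads with it, fell with log2 ratios of -1.95, -1.92 and -1.02. znfl1, of the same zinc-finger group, was the other fall (log2 ratio -0.89). The list's higher member was gata2a, which also marks ventral ectoderm and is taken up with that tissue.

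Presomitic mesoderm, the tissue from which somites bud, separated along its T-box genes. tbx6 fell from 1731 ± 148 to 98 ± 50.5 (log2 ratio -4.08, limma-moderated adjusted p = 0.019). tbx16 and tbx16l, T-box genes of mesoderm progenitors, were at 1929 ± 90.7 and 953 ± 153 and at 2335 ± 107 and 889 ± 224, with log2 ratios of -1.01 and -1.39 and adjusted p of 0.072 and 0.09 by the same limma-moderated test. The helix-loop-helix gene msgn1 was at 3041 ± 210.3 and 680 ± 362 (log2 ratio -2.15, limma-moderated adjusted p = 0.17). In these 3 genes the values of the groups cannot overlap although the test did not call them, and tbx16 and tbx16l passed with the variance trend (adjusted p 0.015 and 0.021). tbxta, the Brachyury gene of notochord and tailbud progenitors, was nearly level at 2488 ± 164 and 2229 ± 103 (log2 ratio -0.16, limma-moderated adjusted p = 0.59). Of 18 presomitic genes 1 fell, 1 rose, the BMP decoy receptor gene bambia, and the median was -0.41, whereas with the variance trend 8 were lower and 2 higher.

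Among segmentation clock genes, the boundary gene and the oscillating repressors fell. ripply1, which switches off the presomitic program as a somite forms, fell from 509 ± 37.2 to 20 ± 0.882 (log2 ratio -4.36, limma-moderated adjusted p = 8.3e-05). The oscillating repressor genes her1 and her7 fell less, her1 from 737 ± 44.8 to 219 ± 31.4 (log2 ratio -1.73) and her7 from 705 ± 48.6 to 385 ± 4.33 (log2 ratio -0.86). Notch pathway members of the same list were near equal: lfng, a Notch-modifying enzyme, was at 3884 ± 189 and 4122 ± 145 (log2 ratio 0.09) and notch1a at 3775 ± 332 and 4394 ± 104 (log2 ratio 0.22). Neither passed the test, and 4 of 22 clock and boundary genes fell (median -0.18).

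Some genes of formed somites and of muscle fell. meox1, a homeobox gene of early somites, fell from 466 ± 21.9 to 26 ± 10.3 (log2 ratio -3.93). The forkhead genes foxc1a and foxc1b fell from 1289 ± 110.4 to 99 ± 44 and from 108 ± 8.08 to 21 ± 4.67 (log2 ratios -3.64 and -2.12), and tcf15, which acts in somite epithelium, fell from 166 ± 6.69 to 18 ± 1.53. They were the 4 called members of 10 measured, with a list median of -0.83, and pax3a was at 845 ± 32.2 and 728 ± 130.3 (log2 ratio -0.21). myod1, which commits cells to muscle, fell from 112 ± 16.8 to 8 ± 3.38 (log2 ratio -3.17, limma-moderated adjusted p = 0.0066). The actin gene actc1a fell from 147 ± 26.6 to 12 ± 3.46 and smyd1b, a methyltransferase needed for myofibrils, fell from 132 ± 5.69 to 11 ± 4.67. myf5, the other early myogenic factor, was at 395 ± 32.4 and 47 ± 23.7 and was the record next outside the threshold of the test (log2 ratio -2.94, limma-moderated adjusted p = 0.0504), past it with the variance trend (adjusted p 0.0099). Of 17 muscle genes 4 fell and 15 had ratios below 0, among them unc45b, a myosin chaperone gene, at 1011 ± 75.8 and 892 ± 70.31 (log2 ratio -0.18) without a call. ttn.2, of the giant muscle protein titin, was the fourth (log2 ratio -1.55). lbx2, a homeobox gene of the muscle lineage, fell from 410 ± 52 to 18 ± 10.7 (log2 ratio -4.17).

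**Figure D2:**
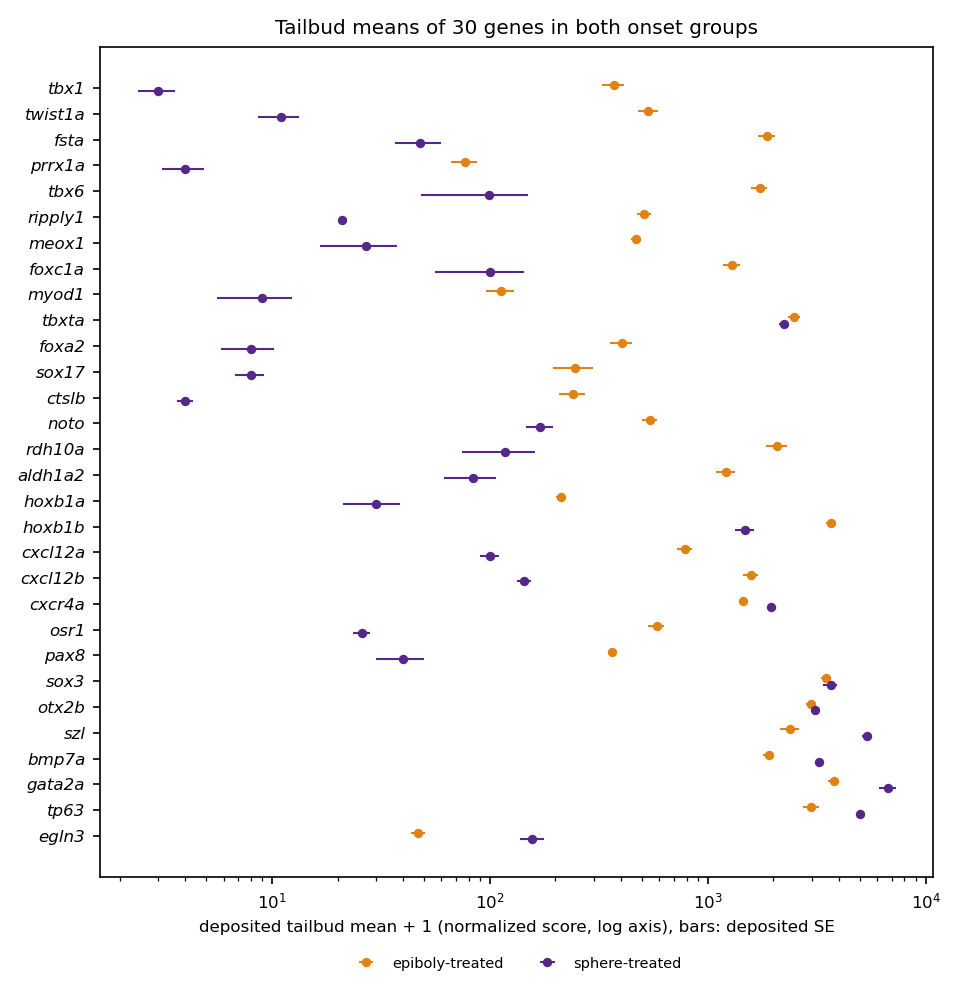
Deposited tailbud means plus 1 (x, log axis) with standard errors for 30 genes in epiboly-treated (orange) and sphere-treated (purple) embryos. The purple points lie far to the left for tbx1, twist1a and ctslb, meet the orange ones for tbxta, sox3 and otx2b, and lie to the right for szl, gata2a and egln3.

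Endoderm markers fell unevenly. foxa2, a forkhead factor of endoderm and axial midline, fell from 402 ± 47.6 to 7 ± 2.19 (log2 ratio -5.08, limma-moderated adjusted p = 2.8e-04), and the HMG-box gene sox17 fell from 246 ± 51.5 to 7 ± 1.2 with a log2 ratio of -4.39 (limma-moderated adjusted p = 6.6e-04). sox32, which acts upstream of sox17, was at 441 ± 40.2 and 230 ± 44.6 (log2 ratio -0.92, limma-moderated adjusted p = 0.16) and was not called. The values of sox32 cannot overlap between the groups, so the missing call does not show equal levels. Of 13 measured endoderm genes 3 fell, foxa2, sox17 and hnf1ba, and the median was -0.58. The chemokine receptor gene cxcr4a, which guides endoderm cells, was at 1450 ± 22.5 and 1942 ± 22.3 (log2 ratio 0.42, limma-moderated adjusted p = 0.056). Its values cannot overlap between the groups, and it passed with the variance trend (adjusted p 0.0079).

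The prechordal plate forms the hatching gland, whose enzyme genes fell. The cathepsin genes ctslb.4 and ctslb fell from 1467 ± 175 to 28 ± 3.84 and from 240 ± 33.7 to 3 ± 0.333 (log2 ratios -5.48 and -4.94). Genes of the enzymes that dissolve the egg envelope, he1.1 and he1.2, fell from 68 ± 14.8 to 3 ± 0.577 and from 81 ± 2.73 to 9 ± 2.91. Copies of these genes are near-identical, so their separate values are uncertain. In the RefSeq gene table ctslb lies in a run of 16 neighbouring protein-coding genes, 10 of which were measured. The run was bounded by genes with a cathepsin L synonym, ctslb and MGC174155, the last 2 already among the 20 lowest called records. All 10 measured genes fell, with log2 ratios from -4.94 to -2.26. That count was thus partly fixed in advance, and they cannot be counted as independent genes. MGC174155, one of them, fell from 65 ± 11.4 to 1 ± 1. ntd5, given without a role, fell from 892 ± 89.3 to 70 ± 6.66. Wnt regulators made by the prechordal plate fell as well: frzb, a Wnt antagonist, from 207 ± 11.1 to 22 ± 2.73 (log2 ratio -2.97) and dkk1b, a Wnt co-receptor inhibitor, from 302 ± 14.4 to 111 ± 7.13 (log2 ratio -1.40). gsc, the homeobox gene of the organizer, was at 178 ± 5.51 and 87 ± 38.6 (log2 ratio -0.99, limma-moderated adjusted p = 0.4). The test did not call gsc, although its values cannot overlap between the groups. klf17, a zinc-finger gene of hatching gland and of outer ectoderm, was at 1371 ± 9.84 and 1921 ± 122 (log2 ratio 0.49) and was not called, but it passed as higher with the variance trend (adjusted p 0.019). fzd8b, a Wnt receptor gene of the anterior region, fell from 368 ± 18.3 to 88 ± 14.8. The list gave 7 lower and 0 higher of 15.

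Notochord genes fell in 3 of 16 cases. noto, the homeobox gene that keeps notochord fate, fell from 543 ± 42.8 to 169 ± 24.2 (log2 ratio -1.66, limma-moderated adjusted p = 0.0093), and emilin3a, a sheath matrix gene, fell from 203 ± 18.1 to 11 ± 3.18 (log2 ratio -3.70). loxl5b, a lysyl oxidase-like gene, fell from 42 ± 5.78 to 4 ± 1.53. The BMP antagonist chordin, whose gene chrd is expressed by the organizer and its derivatives, was at 6356 ± 151 and 4590 ± 468 (log2 ratio -0.47, limma-moderated adjusted p = 0.19). chrd was not called, although its values cannot overlap between the groups. The notochord laminin genes lamb1a and lamc1 had ratios of 0.18 and -0.21 and were not called. Hedgehog response genes, which report ligand from notochord and floor plate, fell as well: the effector gene gli1 from 490 ± 24.9 to 217 ± 26.5 (log2 ratio -1.16) and nkx6.1, a ventral neural tube gene, from 313 ± 19.1 to 59 ± 5.78 (log2 ratio -2.31). foxa and ntn1a, of the floor plate, fell with log2 ratios of -1.61 and -0.81. smo and gli2b, of the signal transduction chain, had ratios of -0.05 and 0.17 and were not called, and in all 4 of 20 members fell.

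Guidance and matrix genes gave mixed results. The chemokine genes cxcl12a and cxcl12b, which guide migrating cells, fell from 783 ± 64.2 to 99 ± 9.82 and from 1579 ± 122 to 143 ± 10.7 (log2 ratios -2.92 and -3.42). Their receptor genes were not called: cxcr4b was at 261 ± 10.7 and 382 ± 20.6 (log2 ratio 0.54, limma-moderated adjusted p = 0.067) and the scavenger receptor gene ackr3b at 1919 ± 67.2 and 2290 ± 146 (log2 ratio 0.25). The values of cxcr4b cannot overlap between the groups, and it passed as higher with the variance trend (adjusted p 0.045). fbln2, which encodes a fibulin of the matrix, fell from 437 ± 46.7 to 22 ± 8.35 (log2 ratio -4.03), and plod2, an enzyme that hydroxylates collagen lysines, fell from 379 ± 53.3 to 21 ± 3.46 (log2 ratio -3.88). Of 22 collagen genes 2 fell, col13a1 from 88 ± 19.6 to 9 ± 0 and col11a1a from 94 ± 13.2 to 29 ± 3.93, and 17 had ratios below 0 (median -0.50). Cadherin genes moved in opposite directions: cdh11, of mesenchyme, fell from 771 ± 20.9 to 99 ± 29.985 (log2 ratio -2.90), whereas cdh1, the E-cadherin of epithelia, rose from 3549 ± 116 to 5013 ± 131 (log2 ratio 0.50). cdh2, the N-cadherin of neural plate and mesoderm, was at 9766 ± 141 and 7575 ± 298 (log2 ratio -0.37, limma-moderated adjusted p = 0.12). It was not called, but its values cannot overlap between the groups and it passed as lower with the variance trend (adjusted p 0.022). Named here after their values were seen, further matrix genes of the called set were has2, which makes hyaluronan, from 222 ± 29 to 46 ± 1.33, vcana, of the proteoglycan versican, from 853 ± 62.4 to 268 ± 65.9, and fbn2b, of a fibrillin, from 1541 ± 113 to 518 ± 101. pdgfra, the receptor gene of platelet-derived growth factor in mesenchyme, also chosen so, fell from 212 ± 10.5 to 29 ± 5.55. Among 7 laminin and 12 integrin genes the test called 0 and 0, with medians of -0.01 and -0.03. With 1.71% of all records called lower and 0.255% higher, such short lists would hold few calls or none.

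Retinoic acid is made in the paraxial and lateral mesoderm and patterns the hindbrain above it. The genes of its synthesis fell: rdh10a, which makes retinal from retinol, from 2085 ± 234 to 117 ± 43.8 (log2 ratio -4.10, limma-moderated adjusted p = 0.0059) and aldh1a2, which makes retinoic acid from retinal, from 1209 ± 119 to 83 ± 22.4 (log2 ratio -3.79, limma-moderated adjusted p = 0.0022). dhrs3a, which turns retinal back to retinol and is induced by retinoic acid in many vertebrate settings, fell from 209 ± 7 to 16 ± 2.73 (log2 ratio -3.35). The nuclear receptor genes nr2f1a and rarab fell from 90 ± 15.19 to 11 ± 5.84 and from 2594 ± 90.027 to 1798 ± 44.6, and nrip1a, a nuclear receptor corepressor, fell from 496 ± 39 to 135 ± 8.11. cyp26a1, the degrading enzyme, was at 6023 ± 425 and 7789 ± 775 (log2 ratio 0.37, limma-moderated adjusted p = 0.34), and crabp2b, a binding protein, at 8499 ± 416 and 10743 ± 1408 (log2 ratio 0.34). Of 24 measured members 7 fell and 0 rose; the list median was -0.57.

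Hox genes, which assign position along the body axis, had lower ratios in the paralogue groups nearer the head than in the posterior ones. The steepest fall was that of hoxb1a, a hindbrain gene, from 211 ± 10.3 to 29 ± 8.74 (log2 ratio -2.67, limma-moderated adjusted p = 0.0081). hoxb1b, its early-acting relative, fell from 3677 ± 169 to 1478 ± 147 (log2 ratio -1.31), hoxb3a from 522 ± 22.3 to 145 ± 30.1, hoxb5a from 62 ± 7.77 to 15 ± 2.03 and hoxc6a from 88 ± 4.73 to 40 ± 4.33. Of 28 measured Hox genes 5 fell (8 with the variance trend), none rose, and 27 had ratios below 0. The median ratio was -1.27 over the 12 genes of groups 1 to 5, -0.87 over the 7 of groups 6 to 8 and -0.38 over the 9 of groups 9 to 11. The first and last of these classes overlapped, with ranges of -2.67 to -0.32 and of -0.63 to 0.43. Across the 28 genes, which share clusters and samples and are not independent, the ratio and the group number correlated at Pearson's r = 0.70 and Spearman's rho = 0.71, as a description. In the last class hoxb9a was at 1048 ± 49.6 and 676 ± 103 (log2 ratio -0.63) and none was called. The values of hoxb9a cannot overlap between the groups.

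**Figure D3:**
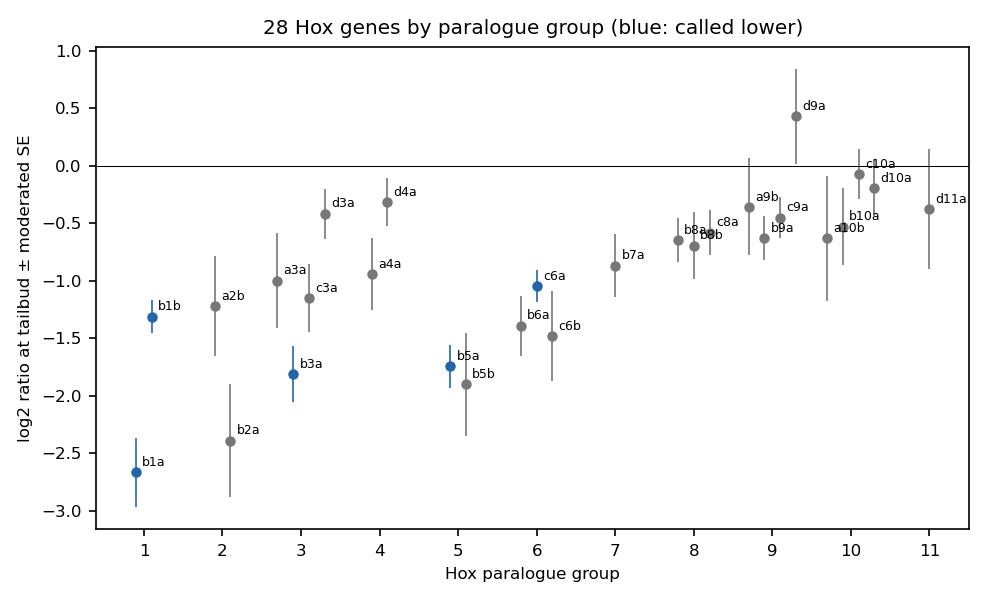
Log2 ratio at tailbud (y) of 28 Hox genes by paralogue group (x), with moderated standard errors; the 5 genes called lower are blue. Ratios run from -2.67 to -0.32 in groups 1 to 5 and from -0.63 to 0.43 in groups 9 to 11, so the ranges overlap.

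Some Hox cofactor and Iroquois genes fell too, while the neural plate genes sox3, sox19a and otx2b were near equal. meis3 and meis2b, homeobox cofactors of Hox proteins, fell from 2425 ± 58.8 to 772 ± 107 and from 2226 ± 86.5 to 1227 ± 83.8 (log2 ratios -1.64 and -0.86), and the Iroquois genes irx3a, irx3b and irx5a fell with log2 ratios of -2.60, -1.01 and -1.09. pbx4, another Hox cofactor gene, was at 4669 ± 58.4 and 5011 ± 190.5 (log2 ratio 0.10) and was not called. irx7 and irx1b, of the Iroquois family, in which 3 of 6 fell, had ratios of 0.09 and -0.15 and were not called. egr2b, a marker of rhombomeres, was at 45 ± 6.69 and 35 ± 16.3 (log2 ratio -0.32). In the midbrain and hindbrain list 8 of 33 fell and 0 rose. The 8 include pax8, hnf1ba, hoxb1a and hoxb1b, which are counted in other lists as well, so the counts of different lists are not separate results. The neural plate genes sox3 and sox19a were at 3491 ± 171 and 3663 ± 272 and at 8332 ± 555 and 8134 ± 420.1 (log2 ratios 0.07 and -0.03), and otx2b, of forebrain and midbrain, at 2968 ± 137 and 3099 ± 121 (log2 ratio 0.06). pax2a, also listed as a neural plate marker, had a log2 ratio of -0.91 with a wide sphere-treated error and was not called. Not all markers listed for the neural plate are given. hesx1, a homeobox gene of the anterior forebrain, rose from 371 ± 22.2 to 753 ± 98.5 (log2 ratio 1.01, limma-moderated adjusted p = 0.0461), the single called-higher member of 31 forebrain and eye field genes, of which foxd2 fell from 78 ± 6.66 to 34 ± 3.61. Neural progenitor and neurogenesis genes gave 2 lower and 0 higher of 44, the lower ones being notch2 (log2 ratio -0.74) and her13 (log2 ratio -0.67).

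Of the lists, that of BMP signalling held the most rises. szl, which encodes sizzled, a secreted inhibitor of the proteases that cut Chordin, rose from 2392 ± 245 to 5378 ± 280.039 (log2 ratio 1.17, limma-moderated adjusted p = 0.013). bmp1a, a gene of such a protease, rose from 1192 ± 67.7 to 2225 ± 110.4 (log2 ratio 0.90), the ligand gene bmp7a rose from 1906 ± 111 to 3225 ± 96.4 (log2 ratio 0.76) and bambia, a decoy receptor gene, rose from 4577 ± 143 to 7076 ± 332 (log2 ratio 0.63). Of 42 members 5 rose and 3 fell, and 33 had ratios above 0 (median 0.28). Those that fell were the antagonist genes fsta and nog1, the latter from 240 ± 21.5 to 37 ± 6.66 (log2 ratio -2.54), and admp, an organizer-expressed BMP ligand gene, from 452 ± 28.7 to 122 ± 32.9 (log2 ratio -1.85). id1, a BMP target, was at 9079 ± 656 and 9668 ± 335 (log2 ratio 0.09) and bmp4 at 899 ± 44.2 and 1172 ± 64.6 (log2 ratio 0.38), neither called. The values of bmp4 cannot overlap between the groups, whereas those of id1 may.

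Several regulators of ventral ectoderm rose, each by less than 2-fold. tp63, the p63 gene of epidermal precursors, rose from 2986 ± 241 to 5007 ± 101 (log2 ratio 0.74, limma-moderated adjusted p = 0.033), the AP-2 gene tfap2c rose from 8864 ± 398 to 13232 ± 375 (log2 ratio 0.58), gata2a rose from 3792 ± 217 to 6696 ± 586 (log2 ratio 0.82) and dlx3b, of the border of the neural plate, rose from 3399 ± 141 to 5706 ± 296 (log2 ratio 0.75). klf2a and klf3, zinc-finger genes, rose from 1979 ± 62.3 to 3916 ± 257 and from 557 ± 36.4 to 866 ± 14.9. tfap2a, gata3 and foxi1, further regulators of this tissue, were not called, with log2 ratios of 0.59, 0.59 and 0.89 (limma-moderated adjusted p = 0.075, 0.055 and 0.059). All 3 passed with the variance trend (adjusted p 0.012, 0.0067 and 0.01). Over the list of epidermal and periderm genes, 4 of 50 rose (9 with the variance trend), none fell and 42 were above 0. Their structural products were near equal: the 13 keratin genes had a median of 0.10 and none was called, with krt4 at 91631 ± 2689 and 96656 ± 1727 (log2 ratio 0.08) and krt5 at 61010 ± 702 and 62752 ± 570.4 (log2 ratio 0.04). Preplacodal genes split, since dlx3b rose while six4a fell from 198 ± 2.03 to 17 ± 10.6 (log2 ratio -3.21) and pax8 fell. Of the neural crest list twist1a and snai1b fell, the latter from 525 ± 50.5 to 127 ± 7.31 (log2 ratio -2.01), whereas tfap2c rose. With the relative variance pooled over all 6 groups tp63 and dlx3b were not called, and with groups rescaled to equal totals cdh1 was not.

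Apart from these tissues, the highest called ratio was that of egln3, a prolyl hydroxylase gene induced by low oxygen, which rose from 46 ± 3.51 to 156 ± 19.975 (log2 ratio 1.66, limma-moderated adjusted p = 0.0061). In the low-oxygen and glycolysis list 1 of 58 rose and 2 fell, both of the latter being collagen-modifying hydroxylase genes, plod2 and p4ha2, and 40 had ratios above 0 (median 0.14). Further rises were those of syn1, a synapsin gene, from 109 ± 7.84 to 336 ± 22.9 (log2 ratio 1.58), csrp2, a LIM-domain gene, from 93 ± 16.7 to 257 ± 25.4 (log2 ratio 1.42) and vgll4l, a vestigial-like cofactor gene, from 364 ± 21.9 to 717 ± 32.6 (log2 ratio 0.97). plekha5, coro2aa and vps35l rose with log2 ratios of 0.98, 0.86 and 0.81. prtgb also passed the test at a level close to the bottom of the scale, from 1 ± 0.667 to 10 ± 1.2, and was not called with the variance trend.

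FGF and Wnt feedback genes fell in part. il17rd, an FGF antagonist, fell from 1901 ± 81.2 to 1222 ± 75.7 (log2 ratio -0.64) and fgfrl1b, a decoy FGF receptor, fell from 150 ± 4.91 to 52 ± 4.67 (log2 ratio -1.44). dusp6, an FGF-induced phosphatase, was at 4643 ± 112 and 3050 ± 299.6 (log2 ratio -0.61, limma-moderated adjusted p = 0.1), and it passed with the variance trend (adjusted p 0.023). Of 28 FGF genes 2 fell, 24 had ratios below 0 and the median was -0.46. Wnt genes gave 5 of 53 lower, including the feedback genes nkd1 and dact2 (log2 ratios -0.57 and -0.80), and a median of -0.13. cdx4, a caudal-type gene of the posterior body and a Wnt target, was at 8883 ± 327 and 7337 ± 88.9 (log2 ratio -0.28, limma-moderated adjusted p = 0.22). It was not called, although its values cannot overlap between the groups. Of 11 posterior genes other than Hox 1 fell, nkx1.2la. In the Nodal pathway itself dact2 was the 1 gene called of 23: the type I receptor gene acvr1ba was at 1809 ± 29.2 and 1545 ± 133 (log2 ratio -0.23), smad2 at 620 ± 21 and 651 ± 15.6 (log2 ratio 0.07), foxh1 at 1182 ± 20.2 and 1833 ± 309.6 (log2 ratio 0.63) and gdf3, of the Nodal partner Vg1, at 186 ± 11.1 and 139 ± 13.2 (log2 ratio -0.41). The ligand genes ndr1 and ndr2 were not analysed here.

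Genes of basic cell functions did not pass the test in any member of 6 lists. These were 55 replication genes (median -0.05), 55 mitosis genes (0.06), 89 ribosomal protein genes (-0.09), 102 oxidative phosphorylation genes (-0.11), 49 proteasome genes (-0.08) and 79 translation factors (-0.06). Since 1.71% of all records were called lower and 0.255% higher, a count of 0 in a list of such size is near the background. Of the ribosomal protein genes 85 lay below 0, and all 89 within a narrow range of -0.40 to 0.18. Ratios below 0 also prevailed among oxidative phosphorylation (83), proteasome (37), replication (38) and translation factor (55) genes. Of the mitosis genes 43 lay above 0. Among all 13321 records 6832 lay below 0. Of 26 p53 and DNA damage genes 1 fell, plk3 (log2 ratio -0.85), and of 51 heat shock and ER stress genes 0 were called. With the variance trend 3 of these 51 were lower, against 2.25% of all records, and 35 had ratios below 0 (median -0.17). For 13 of the 51 the values cannot overlap in the lower direction, against 8.07% of all records. cdkn1a, a p53 target, was at 140 ± 18 and 133 ± 11.5 (log2 ratio -0.07). Yolk syncytial layer genes were not called in 30 cases (median 0.31), and of 37 germ cell and maternal genes 1 fell, tob1a from 2295 ± 123 to 1378 ± 95.5. nanog, a maternal regulator that wanes through gastrulation, was at 293 ± 10.2 and 486 ± 83.3 (log2 ratio 0.72, limma-moderated adjusted p = 0.19). It was not called, although its values cannot overlap between the groups.

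**Figure D4:**
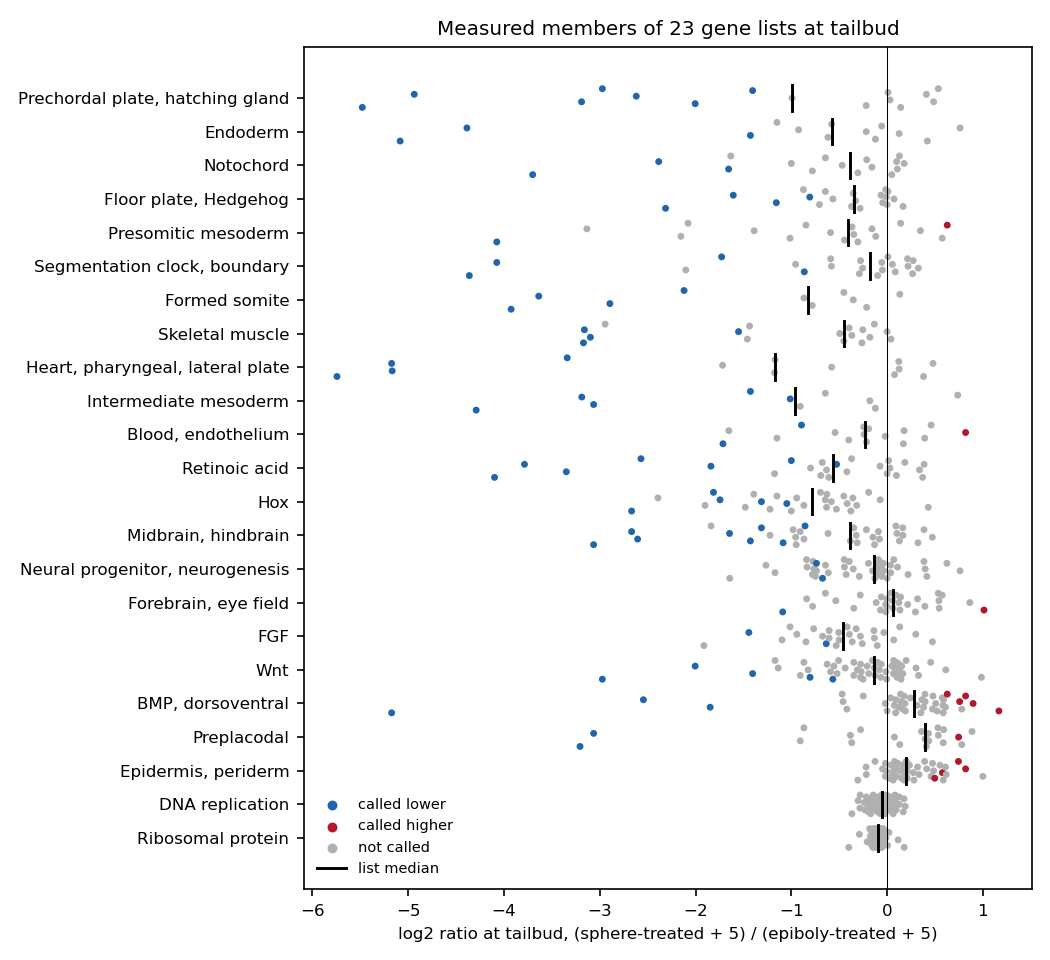
Log2 ratio at tailbud (x) of each measured member of 23 gene lists (rows); black bars are list medians. Mesoderm, endoderm, retinoic acid and Hox lists reach far to the left, most points called higher (red) are in the BMP and epidermis lists, and replication and ribosomal protein genes stay near 0.

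The tailbud comparison was set against the same comparison at shield and at 7-somite stage, which use other embryos. At shield the test called 19.8% of records lower and 20.4% higher, and at 7-somite 8.78% and 5.91%, so tailbud had the fewest calls. Calls depend on precision, which differed between stages. At means of 100 or more, the median relative error at shield, tailbud and 7-somite was 2.46%, 4.64% and 3.74% in epiboly-treated embryos. In sphere-treated embryos it was 5.18%, 5.15% and 4.73%. The part of precision in the call counts was not tested. By the test of the difference of ratios, 1588 records (11.9%) had a lower ratio at tailbud than they had had at shield, and it was higher for 1066 (8%). Against 7-somite it was lower for 174 (1.31%) and higher for 96 (0.721%). Across all records, which are not independent, the tailbud ratio correlated with the 7-somite ratio at Pearson's r = 0.48 and with the shield ratio at r = 0.11.

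Ratios of several mesoderm and retinoic acid genes were lowest at tailbud, past the test of the difference from either other stage. tbx6 had ratios of -0.70 at shield, -4.08 at tailbud and -0.20 at 7-somite, and the tailbud ratio minus the 7-somite ratio was -3.87 (limma-moderated adjusted p = 0.021). aldh1a2 went through -0.44, -3.79 and -0.26, rdh10a through -1.59, -4.10 and -0.39, and ripply1 through -2.02, -4.36 and -1.04. fsta stood at -0.12, -5.17 and -1.46, but both its shield means were low, where the pseudocount holds the ratio near 0. Others were also called lower at both other stages: tbx1 stood at -2.69, -5.74 and -3.89, and sox17 at -2.60, -4.39 and -2.47. Ratios of hatching gland genes were lower still at 7-somite: ctslb.4 moved from -5.48 at tailbud to -9.03 at 7-somite and he1.2 from -2.62 to -6.37, tailbud minus 7-somite differences of 3.55 and 3.75 (limma-moderated adjusted p = 0.0064 and 0.0014). At the tailbud means of these genes given above, the pseudocount bounds how low a tailbud ratio can go, most of all for he1.1 and he1.2. Its part in these differences was not tested. Ratios of another set lay above 0 at shield: hoxb1b was at 1.86 at shield and -1.31 at tailbud, and meis2b at 2.63 and -0.86. In all, 65 of the 228 records called lower at tailbud were called lower at shield too, and 27 were called higher there, against 19.8% and 20.4% of all records. Of the 228, 98 were called lower at 7-somite too, against 8.78% of all records, and 67 had a tailbud ratio below that of both other stages by the tests of the difference. The 228 were picked by a low tailbud ratio, which enters both differences and favours this outcome. The count of 67 therefore describes these records and adds no support.

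Whole lists took different courses over the stages. The median ratios at shield, tailbud and 7-somite were -0.25, -0.96 and -0.37 for intermediate mesoderm, -0.10, -1.17 and -0.60 for the heart and pharyngeal list, 0.00, -0.78 and -0.29 for Hox and 0.07, -0.57 and -0.20 for retinoic acid genes, each lowest at tailbud. At shield both means were 5 or less for 23 of 28 Hox, 3 of 24 retinoic acid, 0 of 10 intermediate mesoderm and 3 of 13 heart and pharyngeal genes, where the pseudocount holds the ratio near 0, so the shield median of the Hox genes gives no course. Of the 24 retinoic acid genes 7 had a lower ratio at tailbud than at shield by the test of the difference, and 4 a lower one than at 7-somite. Of the 28 Hox genes 12 and 1 did so. The shares of all records with a lower tailbud ratio were 11.9% against shield and 1.31% against 7-somite. For the 23 Hox genes with such low shield means the difference from shield largely restates the tailbud ratio, so the count of 12 gives no course either. Muscle genes, with 3 of 17 at such shield means, had medians of 0.18, -0.45 and -0.78, and 10 of 17 had a lower ratio at tailbud than at shield. Germ cell and maternal genes took the other direction, with medians of -0.75, 0.19 and -0.06. Of these genes 22 of 37 had a higher ratio at tailbud than at shield, against 8% of all records. For 12 of the 37 the higher tailbud mean was under 50, against 783 of 13321 records. At such means the pseudocount draws the tailbud ratio toward 0, and its part in the rise was not tested. The low-oxygen and glycolysis list had medians of -0.11, 0.14 and 0.62. Of its 58 genes 14 had a lower ratio at tailbud than at 7-somite, egln3 among them (1.66 against 4.55). The BMP list had medians of 0.22, 0.28 and 0.23, and all records had 0.01, -0.01 and -0.02. Of the 34 records called higher at tailbud, 18 were also called higher at shield, 7 lower at shield and 18 higher at 7-somite. The shares of all records with these calls were 20.4%, 19.8% and 5.91%, so the count of 7 is near the background.

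**Figure D5:**
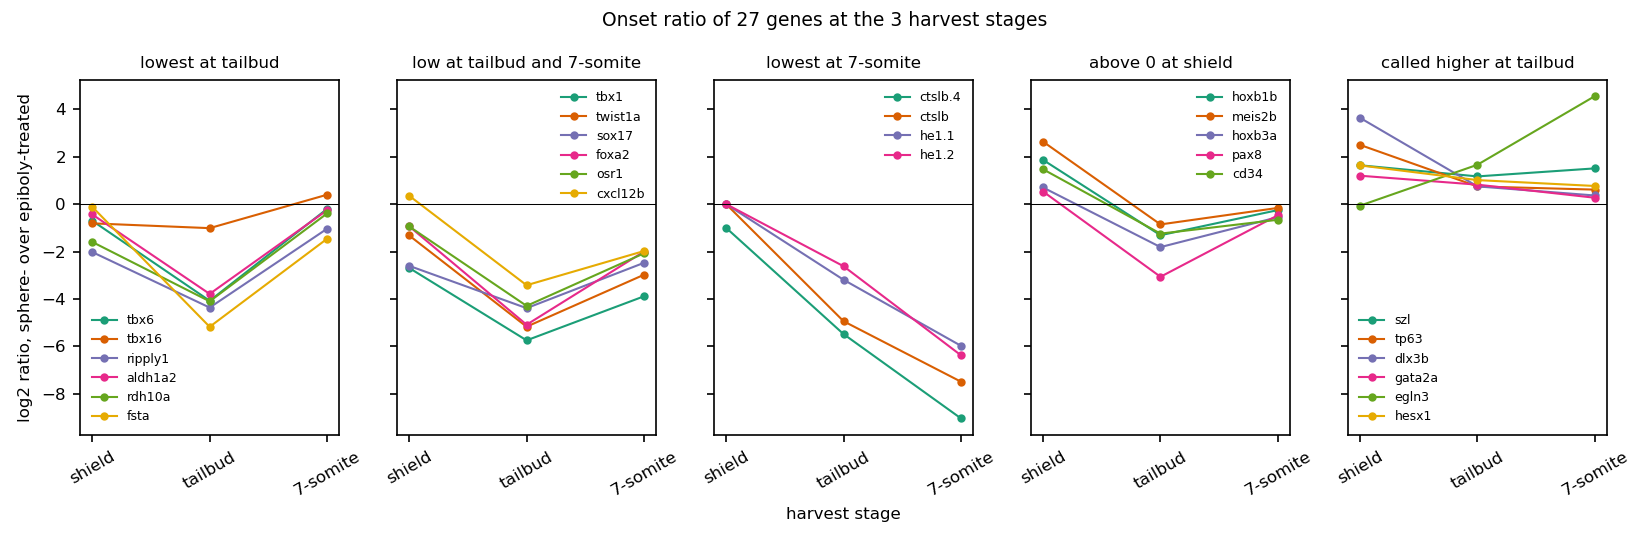
Log2 ratio of sphere- over epiboly-treated means (y) at the 3 harvest stages (x) for 27 genes in 5 panels. tbx6, aldh1a2 and rdh10a are lowest at tailbud and between -0.39 and -0.20 at 7-somite, ctslb.4 and he1.2 are lowest at 7-somite, and egln3 is highest there at 4.55.

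The called genes also differed in their course over the stages in epiboly-treated embryos, which were themselves exposed to the inhibitor. In them, from stages that the tailbud comparison does not use, the 228 records called lower had a median log2 change from shield to 7-somite of 1.94, against -0.21 for all records. It was above 0 for 72.8% of them, against 42.7% of all records. A record called lower needs an epiboly-treated tailbud level above the bottom of the scale, and whether this favours such a course was not tested. The 34 records called higher had a median change of -0.45, above 0 for 32.4%. Over all records the tailbud ratio and this change correlated at Pearson's r = -0.35. Not all of the age markers listed for this check are given. The gastrula genes gave mixed values: vox and ved were at 2799 ± 127 and 2949 ± 99.7 and at 3764 ± 158 and 5408 ± 306 (log2 ratios 0.08 and 0.52), gdf3 and gsc were lower and nanog higher in sphere-treated embryos, none of them called. With the variance trend ved passed as higher (adjusted p 0.013). The values of ved, gsc and nanog cannot overlap between the groups. Of the markers that rise at segmentation, myod1 fell, as given above. egr2b, pax2a and elavl3 also had ratios below 0 (log2 ratios -0.32, -0.91 and -0.76) but were not called. The part of developmental age in the tailbud ratios was not tested.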

How the data were processed

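RNA of whole embryos was sequenced in 6 samples, and the authors deposited 1 table of upper-quartile normalized means and their standard errors per group, whole-number and 3-decimal scores per the file headers, not raw counts. Per the submitters' processing notes DESeq 1.6.1 was among the tools, its role unstated. The aligner and the build, not given in the sources used here, are unknown. Depth is unknown, and intervals for counting error are not given. The smallest highest mean of any record is 101, so genes low in every group are missing. The tailbud means sum to 16816560 and 16933934. Symbols came from a RefSeq gene table, used for names and gene order only; 12182 records matched by gene identifier, 42 by accession and 1097 not at all, and 47 repeat records of a symbol stayed in the fit but are not named.

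The deposited ratio and yes or no columns were not used. The variance of log2(mean + 5) was taken from both standard errors by the delta method and moderated over all 13321 records with limma 3.58.1 in R 4.3.3 (squeezeVar, 4 degrees of freedom per record, 8 for a difference between stages), and two-sided p-values were adjusted by Benjamini-Hochberg over all records. The log2(mean + 5) scale understates changes of low genes. The script was tested on simulated data. Genes were named by rank (20 lowest and 15 highest called records with a gene symbol), as the leading called and most abundant uncalled members of 30 lists and 27 families, as the extremes of each stage difference, or from a short fixed set. The members and lists were chosen with earlier results of these data known. 1 item is not reported here and was left out of the gene list that held it.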

Additional observations from a re-analysis of the deposited data

Results flagged for a closer look

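The ratio between the onset groups differed between stages, by limma-moderated tests of the difference between the tailbud ratio and that of another stage. Against shield, 1066 records had a higher and 1588 a lower ratio at tailbud, and against 7-somite 96 and 174.

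Among named genes the tailbud minus shield difference was lowest for fsta (-5.06), ctslb (-4.94), ctslb.4 (-4.48), foxa2 (-4.15) and fbln2 (-3.86), which had ratios of -0.12, 0.00, -1, -0.93 and -0.17 at shield. Both shield means were low for fsta, at 8 and 7, and for ctslb, at 2 and 2, where the pseudocount holds the ratio near 0. It was highest for the clock gene per1b (3.31), the cyclin gene ccnp (2.44), the kinase gene prkcda (2.43), nanog (2.42) and the connexin gene gjc4a.1 (2.4). These 5 were called lower at shield, and prkcda was the one called higher at tailbud, from 27 ± 1.76 to 48 ± 2.52.

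The tailbud minus 7-somite difference was lowest for tbx6 (-3.87), fsta (-3.71), rdh10a (-3.71), aldh1a2 (-3.53) and ripply1 (-3.32). It was highest for the hatching gland genes he1.2 (3.75), ctslb.4 (3.55), he1.1 (2.78) and ctslb (2.55) and for tal1 (2.61), a regulator of blood formation that was at 27 ± 1 and 22 ± 2.96 at tailbud. For these hatching gland genes the pseudocount bounds how low the tailbud ratio can go, and its part in the differences was not tested.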

How the results depend on the processing

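The treatment of the variance moved the counts most. Against 34 higher and 228 lower calls at tailbud, the variance trend gave 93 higher, no moderation 3 and 39, an assumption of 2 values per mean 209 and 526, and a relative variance pooled over all 6 groups 270 and 585. Of the ratios higher at tailbud than at shield 687 were called without moderation and 470 with 2 values per mean, and of the lower ones 827 with 2 values. Against 7-somite, ratios higher at tailbud numbered 54 with groups rescaled to equal totals, 210 with the variance trend and 19 with 2 values, and the lower ones 94 without moderation and 54 with 2 values. With a pseudocount of 20, 17 records were at least 2-fold higher. Without moderation 98 of the 119 named called genes lost their call, and none of the 175 named genes recomputed changed sign under the 11 alternatives run. Losses elsewhere were those of admp, aplnrb, hesx1, il17rd, nr2f1a, p4ha2, six4a, cdh1, vcana, drll.1 and drll.3 with a pseudocount of 1, of il17rd, nr2f1a, vcana and drll.3 with trimmed-mean (TMM) factors, of il17rd, vcana and drll.3 with centred ratios, of cdh1 with equal totals, of cdh1 and rarab with 2 values, of dkk1b, dlx3b, kctd15a, prkcda, prtgb, six7 and tp63 with the pooled variance and of prkcda and prtgb with the variance trend. The cause was not tested. Scaling moved the median ratio by less than 0.1, to -0.02 with equal totals and 0.01 with TMM factors.

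The number of values per mean was inferred, depth is unknown, and leaving out single replicates was not run, since the table holds means. No paired analysis was possible because the labels carry no replicate numbers and list 1 sample per group.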

Other observations

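Records without a gene name took a larger share of the falls than of the table: 27 of the 228 records called lower (11.8%) had no match in the RefSeq gene table, against 8.24% of all records, and this was not tested. Unnamed loci with high means fell too, chosen here after their values were seen: LOC799796 from 7042 ± 170.1 to 2067 ± 143 (log2 ratio -1.77), LOC100001908 from 6685 ± 129.9 to 2001 ± 139.7 (log2 ratio -1.74), LOC101883064 from 1011 ± 44.9 to 278 ± 20.8 and LOC100334495 from 1901 ± 82 to 696 ± 1.2. LOC799796 and LOC100001908 had ratios of 0.08 and 0.09 at shield and -0.45 and -0.34 at 7-somite, neither called there, so the fall was called at tailbud alone for this pair.

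Other genes of the called set, chosen here after their values were seen, were members of none of the 30 gene lists, although some of their tissues have a list. nkx6.2, a homeobox gene of the ventral neural tube, fell from 595 ± 17.5 to 189 ± 22.6 (log2 ratio -1.63), and its ratio had been 0.95 at shield. The motor neuron homeobox genes mnx1 and mnx2b fell from 36 ± 1.76 to 2 ± 1.53 and from 52 ± 6.77 to 1 ± 1. aplnrb, an apelin receptor gene of migrating mesendoderm, fell from 941 ± 79 to 148 ± 57.6 (log2 ratio -2.63). robo4 and tmem88a, known from the endothelium and the heart, fell from 58 ± 2.91 to 11 ± 2.31 and from 35 ± 1.73 to 2 ± 1. Among the rises, kctd15a, an inhibitor of neural crest formation, went from 2968 ± 103 to 4556 ± 55.1 (log2 ratio 0.62) and six7, a sine oculis-related homeobox gene, from 3795 ± 118 to 5584 ± 30.2 (log2 ratio 0.56).

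Wide standard errors were not spread evenly over gene lists. Of 30 lists 19 had more wide members in sphere-treated embryos, 3 more in epiboly-treated embryos and 8 as many in both. Among presomitic genes with a mean of at least 50, 5 of 18 had a relative error over 25% in sphere-treated and 0 of 18 in epiboly-treated embryos. The same counts were 7 of 23 and 0 of 29 for midbrain and hindbrain genes. Yolk syncytial layer genes went the other way, with 5 of 28 and 9 of 27, as did the solute carrier family with 6 of 186 and 13 of 187. For replication genes the counts were 0 of 55 and 0 of 55.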
